A study of Mus musculus with 18 samples.

Results

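The 10 genes described here encode Toll-like receptor 9 (TLR9) and proteins that fold it, carry it to the endosome and pass on its signal: Tlr9, Unc93b1, Cnpy3, Slc15a4, Myd88, Irak4, Irak2, Traf6, Map3k7 and Irf5. They were chosen by gene name, and all 10 were found once in the count table of each parental strain, among 28374 genes matched between the 129 and Cast tables by name and chromosome. All 10 lie on autosomes. RNA came from CD23+ B cells of the spleen of female F1 mice from a 129S1 and Cast cross with the genotype Xist+/-, in which the Cast X chromosome is the inactive one in every cell, as the labels state. Both groups carry that genotype and differ in treatment. The naive group (n = 3) received none, and the stimulated group (n = 3) was cultured in vitro with 1 µM CpG DNA for 24 h. Ages are not given, and the labels do not say whether replicates were separate mice or cultures, so the p-values measure the spread between these samples, which may be technical. The labels give no group cultured without CpG, so CpG and the 24 h of culture cannot be told apart in what follows. The other 12 samples of the series are not analysed here.

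TLR9 is a receptor of the endolysosome that binds DNA with unmethylated CpG dinucleotides, which are common in bacterial and rare in mammalian DNA, and synthetic CpG oligonucleotides are its standard ligand. The receptor folds in the endoplasmic reticulum with the help of chaperones, travels to endolysosomes bound to UNC93B1 and is cleaved there by proteases. On ligand binding it recruits the adaptor MyD88 and the IRAK kinases, which act through the ubiquitin ligase TRAF6 and the kinase TAK1 (encoded by Map3k7) on NF-kB and MAP kinases, and through IRF5 on cytokine genes. B cells respond to it by dividing, secreting cytokines and differentiating.

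Of the 10 genes, 5 fell after CpG, 1 rose and 4 did not pass the test when the reads of both alleles were summed (edgeR's quasi-likelihood test, Benjamini-Hochberg adjusted p under 0.05 over 10343 genes). The transporter gene Slc15a4 fell by 2.07 on the log2 scale, and Unc93b1, Tlr9, Irak4 and Irf5 fell by 1.20, 1.17, 0.84 and 0.84. Map3k7 rose by 0.51. Myd88, Irak2, Traf6 and Cnpy3 did not pass. Most genes changed in this comparison: 68.7% of all genes tested passed, 34.2% higher and 34.4% lower, so the 6 of 10 that passed are near that background. Without replicate 3 in both groups 5 again fell and 1 rose, where 57.3% of genes passed. The median log2 change of the 10 genes was -0.50, against -0.01 over all genes tested. In bulk RNA, fewer cells of a type and less RNA per cell cannot be told apart.

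**Figure D1:**
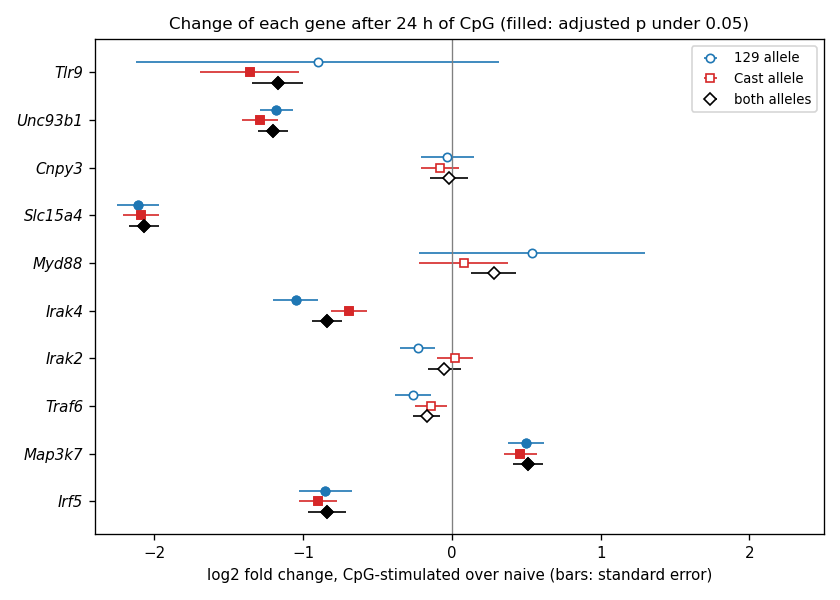
Log2 fold change of each gene, stimulated over naive, with its standard error, in the fits to the 129 reads, the Cast reads and the sum of both (n = 3 samples per group). Slc15a4 lies farthest to the left at about the same place in all 3 fits, Map3k7 alone has filled points on the right, and the bars of Tlr9 and Myd88 are wide on the 129 allele.

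The alleles were also tested one at a time, each in its own strain's tables. On the 129 allele 4 of the 10 genes fell, 1 rose and 5 did not pass, where 55.2% of 10581 genes passed (28.2% higher, 27% lower). On the Cast allele 5 fell, 1 rose and 4 did not pass, where 62.2% of 10365 genes passed (30.7% higher, 31.5% lower). Unc93b1, Slc15a4, Irak4 and Irf5 fell and Map3k7 rose on each allele. In these fits, which carry no replicate block, Tlr9 was the gene called on 1 allele and not on the other. With the replicate number as a block it was called lower on both alleles. Its reads by sample are given below. The medians of the 10 genes were -0.55 on the 129 allele and -0.42 on the Cast allele, against -0.01 and -0.04 over all genes.

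Library totals bear on these values. Gene reads numbered 1987266 to 2928236 per sample in the 129 tables and 2465073 to 3321753 in the Cast tables, and only reads that could be given to 1 strain count, so levels are not compared between genes. B cell markers were present in every sample: 9 of 10 listed were matched, and their summed level was 9320 to 11300 CPM (reads scaled to a fixed library total) in naive and 3550 to 4330 in stimulated samples, where all 9 fell. Macrophage markers also differed between the groups. Of 17 listed, 16 were matched, with Vsig4 at 0 in every sample. Their summed level was 6110, 2910 and 3740 CPM in naive replicates 1, 2 and 3 and 27.9 to 40.0 CPM in stimulated samples, where 11 of the 16 had at most 3 reads in every sample. Summed T cell markers were 53.7 to 67.8 CPM against 5.78 to 7.42, and dendritic cell markers 33.4 to 63.0 CPM against 6.83 to 12.8. In naive samples Cd4 was 25.1 to 49.7 CPM of the T cell sum, and Cd3e, Cd3d, Cd3g and Cd8a were 0.477 to 4.39 CPM each. The part of the macrophage, T cell and dendritic cell markers in the falls described here was not tested. Without naive replicate 1, which had the highest macrophage sum, the 5 falls were all still called, but naive replicates 2 and 3 hold these markers too.

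Promoters of 3 of the genes that changed are shown because the results turn on them: the receptor, the gene with the largest fall, and the one gene that rose. Each is the 250 bases before the RefSeq start in the mouse reference GRCm38.p6, read 5′ to 3′ on the gene's strand. It is the reference strain's sequence, not that of the 129 or Cast allele. Capitals mark matches to a kappaB-like motif, which is GGG and CC with any 5 bases between, on either strand. The Tlr9 window is chr9:106222348-106222597 (plus strand), the Slc15a4 window chr5:127617393-127617642 (minus strand) and the Map3k7 window chr4:31963857-31964106 (plus strand).
Tlr9: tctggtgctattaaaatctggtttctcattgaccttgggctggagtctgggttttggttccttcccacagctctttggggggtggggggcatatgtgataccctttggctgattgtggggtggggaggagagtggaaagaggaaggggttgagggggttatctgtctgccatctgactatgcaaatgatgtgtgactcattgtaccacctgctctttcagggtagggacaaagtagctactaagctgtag
Slc15a4: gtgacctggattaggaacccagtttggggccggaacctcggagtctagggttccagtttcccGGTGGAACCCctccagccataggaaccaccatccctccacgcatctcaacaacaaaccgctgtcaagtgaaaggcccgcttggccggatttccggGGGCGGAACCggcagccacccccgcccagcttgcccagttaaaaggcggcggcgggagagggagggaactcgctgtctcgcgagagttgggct
Map3k7: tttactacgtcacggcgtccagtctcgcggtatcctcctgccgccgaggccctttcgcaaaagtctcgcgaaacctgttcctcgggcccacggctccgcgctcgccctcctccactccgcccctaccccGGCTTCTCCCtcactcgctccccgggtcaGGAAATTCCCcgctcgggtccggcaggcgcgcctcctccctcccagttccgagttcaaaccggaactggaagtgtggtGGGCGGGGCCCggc

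The 3 windows differ in composition. The Tlr9 window holds 0 CpG dinucleotides, as do 7.87% of 32851 mouse promoters of this length (median 6), while the Slc15a4 window holds 17 and the Map3k7 window 28. GC content is 50.4%, 62.8% and 68.0%, against a median of 52.4%. The kappaB-like motif occurs 2 times for Slc15a4 and 4 times for Map3k7, 2 of those overlapping next to the start, and has no match for Tlr9. It is found in 6 of the 9 members with a RefSeq promoter and in 45.8% of all promoters. An IRF-like motif, GAAA 2 times with any 2 bases between, is found in 1 of 9, Myd88, where GAAAGCGAAA lies 40 to 31 bases before the start, and in 2.98% of all. A PU.1-like motif, GAGGAAGT, is in 0 of 9 and 2.44% of all, and an E-box, CACGTG, in 1 of 9 (Cnpy3) and 6.02% of all. These matches are letters in a sequence and show no binding.

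Tlr9, the receptor, had 322, 320 and 307 reads over both alleles in naive replicates 1, 2 and 3, and 152, 143 and 226 in the stimulated ones. Scaled to library size, the level was 76.9, 73.7 and 84.2 CPM in naive and 31.2, 28.5 and 44.1 CPM in stimulated cells. The groups do not overlap, and the third stimulated sample is the highest of its group. The mean fell from 78.3 ± 5.38 CPM to 34.6 ± 8.34 CPM (SD, n = 3). The fitted change was -1.17 on the log2 scale with a standard error of 0.17 (edgeR adjusted p = 1.92e-04).

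The 2 alleles of Tlr9 did not contribute alike in the 3 replicates. Reads on the 129 allele were 38, 29 and 192 in naive and 18, 16 and 155 in stimulated replicates 1, 2 and 3. Cast reads were 284, 291 and 115 in naive and 134, 127 and 71 in stimulated samples. In both groups replicate 3 was the sample high on the 129 allele and low on the Cast allele. The sums of both alleles were close in the naive group, and in the stimulated group replicate 3 had the highest sum. Here and for Myd88, a 129 or Cast read means a read counted in that strain's table, and whether every mouse carried 1 allele of each strain at these genes was not tested. Within each replicate number, both alleles had fewer reads after CpG.

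The error of the tests by allele was wide for Tlr9. On the 129 allele the mean was 41.6 ± 47.4 CPM in naive and 22.1 ± 27.7 CPM in stimulated cells (SD, n = 3). Its fitted change of -0.90 on the log2 scale had a standard error of 1.22 (edgeR adjusted p = 0.569); values after ± on log2 changes are standard errors from here on. With the replicate number as a block the same change was -1.01 ± 0.23 (edgeR adjusted p = 0.00126), where 65.1% of genes passed. On the Cast allele the mean fell from 87.1 ± 32.7 to 34.1 ± 11.5 CPM with no overlap, as for 68.5% of genes on that allele. The change in log2 was -1.36 ± 0.33 (edgeR adjusted p = 0.00612), which became -1.29 (adjusted p = 0.0765) without a filter on low counts. With the replicate number as a block the Cast change was -1.34 ± 0.14 (edgeR adjusted p = 3.60e-06). Without replicate 3 of the naive group alone, the unblocked 129 value turned to 0.64 (adjusted p = 0.674).

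**Figure D2:**
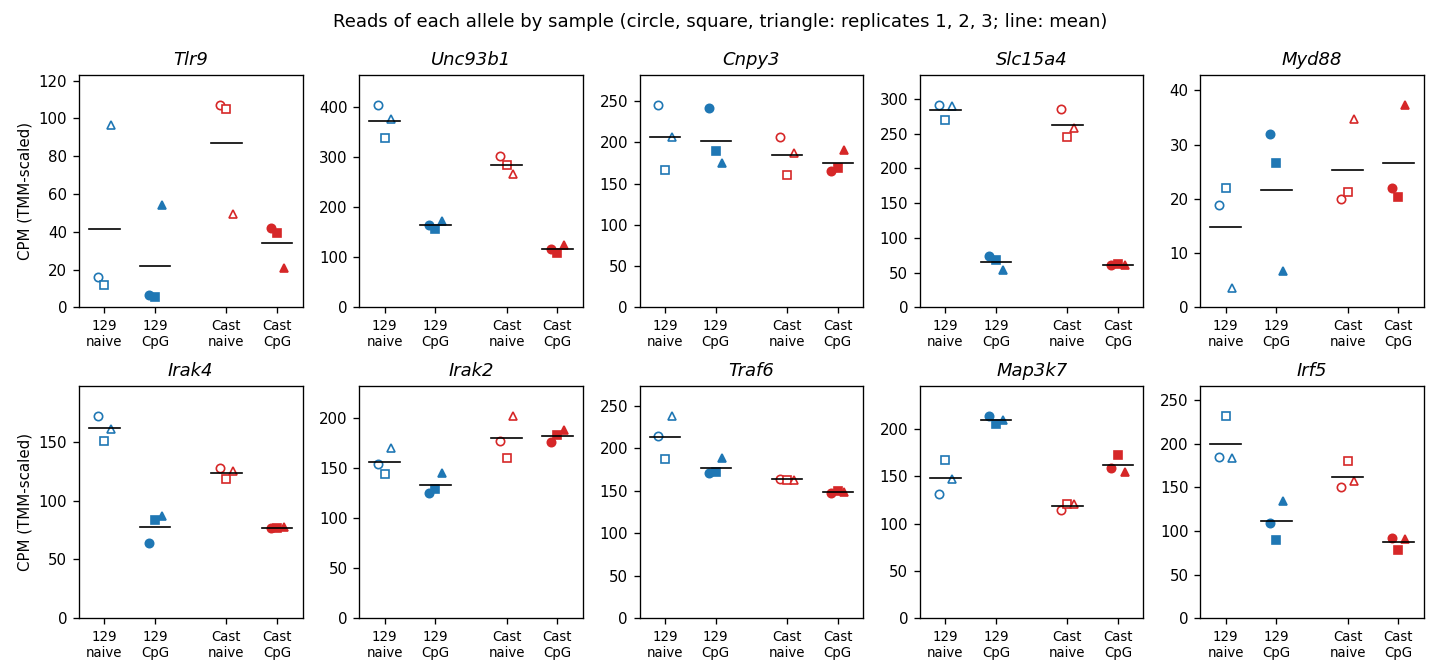
Level of each gene on the 129 and the Cast allele in naive (open) and stimulated (filled) samples, in TMM-scaled CPM of each strain's table; symbols mark the replicate and lines the mean of 3. Triangles (replicate 3) stand apart for Tlr9 and Myd88 in both groups, while for Slc15a4 and Unc93b1 the samples of a group lie close together and the groups are far apart.

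Among the genes that place TLR9 in the endosome, Unc93b1 and Slc15a4 fell and Cnpy3 did not pass. Unc93b1 encodes the membrane protein that escorts nucleic acid-sensing TLRs out of the endoplasmic reticulum. Its reads on the 129 allele were 939, 814 and 751 in naive and 456, 443 and 495 in stimulated samples, and on the Cast allele 801, 790 and 619 against 371, 353 and 419. Every naive sample is above every stimulated one on both alleles, as for 64.8% of all genes on the 129 allele, higher or lower. The summed level fell from 387 ± 24.8 to 169 ± 9.85 CPM (SD, n = 3), a change of -1.20 ± 0.10 in log2 (edgeR adjusted p = 5.48e-06), with -1.18 ± 0.11 on the 129 and -1.29 ± 0.12 on the Cast allele.

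Slc15a4 encodes a histidine and peptide transporter of the endolysosome membrane that is required for TLR7 and TLR9 signalling to IRF5. The 129 allele had 676, 647 and 579 reads in naive and 204, 194 and 156 in stimulated samples, and the Cast allele 758, 680 and 601 against 194, 201 and 208. The naive samples lie far above the stimulated ones on both alleles. The summed level was 342, 306 and 324 CPM in naive and 81.7, 78.8 and 71.1 CPM in stimulated cells, and the log2 change was -2.07 ± 0.10 (edgeR adjusted p = 3.15e-07). By allele it was -2.11 ± 0.14 for 129 and -2.09 ± 0.12 for Cast.

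Cnpy3 encodes a co-chaperone that works with the chaperone gp96 in TLR folding. Its summed reads were 1120, 842 and 848 in naive and 1199, 1080 and 1145 in stimulated samples. The groups overlap once scaled, at 231 ± 36.7 and 228 ± 15.9 CPM (SD, n = 3). The log2 change was -0.02 ± 0.13 (edgeR adjusted p = 0.905), and its sign turned under several of the alternatives given in the closing section.

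Of the adaptor and kinases that receive the signal, Irak4 fell, and Myd88 and Irak2 did not pass. Myd88 encodes the adaptor that joins the receptor to the IRAK kinases. It had 97, 112 and 88 summed reads in naive and 159, 141 and 145 in stimulated samples. The level was 24.4 ± 1.34 CPM in naive and 29.7 ± 2.55 CPM in stimulated cells (SD, n = 3). The groups do not overlap, as is true of 73.8% of all genes tested over both alleles, and the log2 change of 0.28 ± 0.15 did not pass (edgeR adjusted p = 0.122).

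Myd88 was the other gene whose alleles differed between replicates. The 129 allele had 44, 53 and 7 reads in naive and 89, 75 and 19 in stimulated samples, and the Cast allele 53, 59 and 81 against 70, 66 and 126. Replicate 3 was low on the 129 and high on the Cast allele in both groups, the opposite of Tlr9. The changes by allele were 0.54 ± 0.76 for 129 (edgeR adjusted p = 0.581) and 0.08 ± 0.30 for Cast (edgeR adjusted p = 0.835). With the replicate number as a block they were 0.58 ± 0.27 for 129 (edgeR adjusted p = 0.0731) and 0.06 ± 0.20 for Cast (edgeR adjusted p = 0.794).

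Irak4 encodes the kinase that starts the IRAK cascade once MyD88 has assembled. Reads on the 129 allele were 399, 363 and 322 in naive and 177, 235 and 248 in stimulated samples, and on the Cast allele 341, 328 and 292 against 244, 248 and 261. The groups are apart on both alleles. The summed level fell from 168 ± 8.72 to 94.0 ± 6.79 CPM (SD, n = 3), a change of -0.84 ± 0.10 in log2 (edgeR adjusted p = 6.06e-05), with -1.05 ± 0.15 on the 129 and -0.69 ± 0.12 on the Cast allele.

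Irak2, a kinase family member that sustains TLR signalling, had 828, 790 and 809 summed reads in naive and 906, 956 and 1049 in stimulated samples. The scaled levels of 201 ± 20.1 and 194 ± 9.82 CPM overlap (SD, n = 3). The log2 change was -0.05 ± 0.11 (edgeR adjusted p = 0.695), and by allele it was -0.23 ± 0.12 for 129 (adjusted p = 0.138) and 0.02 ± 0.12 for Cast. Under upper-quartile scaling the 129 value was -0.38 (adjusted p = 0.0313).

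Downstream of the IRAK kinases, Map3k7 rose, Irf5 fell and Traf6 did not pass. Traf6 encodes the E3 ubiquitin ligase whose chains recruit TAK1. It had 934, 903 and 854 summed reads in naive and 941, 973 and 1041 in stimulated samples. The scaled level was 222 ± 13.1 CPM in naive and 197 ± 5.59 CPM in stimulated cells (SD, n = 3), without overlap. The log2 change was -0.17 ± 0.09 (edgeR adjusted p = 0.127), and with upper-quartile scaling, which moved the median of all genes from -0.01 to -0.18, it was -0.34 (adjusted p = 0.00802).

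Map3k7 encodes TAK1, the kinase that activates the IKK complex and MAP kinase kinases. Its 129 allele had 305, 402 and 294 reads in naive and 596, 578 and 603 in stimulated samples, and its Cast allele 302, 336 and 281 against 505, 562 and 525. Every stimulated sample is above every naive one on each allele. The sum over both alleles went up from 158 ± 12.6 to 224 ± 3.79 CPM (SD, n = 3), a change of 0.51 ± 0.10 in log2 (edgeR adjusted p = 0.00111). The 129 value of 0.50 ± 0.12 (adjusted p = 0.00983) kept its size but not its call without replicate 3 in both groups (0.50, adjusted p = 0.0730), where 43.3% of genes passed, and the Cast value was 0.46 ± 0.11 (adjusted p = 0.00644).

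Irf5 encodes a transcription factor that is activated downstream of MyD88 and drives cytokine genes. The 129 allele had 429, 558 and 366 reads in naive and 304, 254 and 385 in stimulated samples, and the Cast allele 399, 499 and 365 against 293, 253 and 309. Scaled levels do not overlap between the groups. The summed level fell from 214 ± 25.7 to 120 ± 17.3 CPM (SD, n = 3), a change of -0.84 ± 0.13 in log2 (edgeR adjusted p = 3.88e-04), with -0.85 ± 0.18 on the 129 and -0.90 ± 0.13 on the Cast allele.

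The Cast share, the percentage of a gene's allelic reads that were given to Cast, shows how the alleles differed. Over all matched autosomal genes, Cast reads made up 51.9% to 53.6% of the allelic reads of a sample. Among the 7784 autosomal genes with at least 20 reads in each sample, the median share of a gene was 51.2% to 52.1%. For the 8 genes other than Tlr9 and Myd88 the share lay between 43.8% and 61.9% in every sample. For Tlr9 it was 88.2%, 90.9% and 37.5% in naive replicates 1, 2 and 3, with 95% Wilson intervals of 84.2% to 91.3%, 87.3% to 93.6% and 32.2% to 43.0%. In stimulated replicates it was 88.2%, 88.8% and 31.4%. For Myd88 the shares were 54.6%, 52.7% and 92.0% in naive and 44.0%, 46.8% and 86.9% in stimulated samples, and the interval of naive replicate 3 was 84.5% to 96.1%. The intervals cover counting error only.

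The same replicate number stood apart in the naive and the stimulated group for both genes. The mean share of the replicate 3 samples differed from that of the other 4 by 54.6 percentage points for Tlr9 and 39.9 for Myd88, and by 0.0943 to 4.79 points for the 8 other genes. Of 7784 autosomal genes with enough reads, 181 (2.33%) differed by more than 30 points for replicate 3. The same count was 181 (2.33%) for replicate 1 and 88 (1.13%) for replicate 2, and on chromosome 9, which holds Tlr9 and Myd88, 12 of 445 genes (2.70%) did so for replicate 3, 1 for replicate 1 and 0 for replicate 2.

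**Figure D3:**
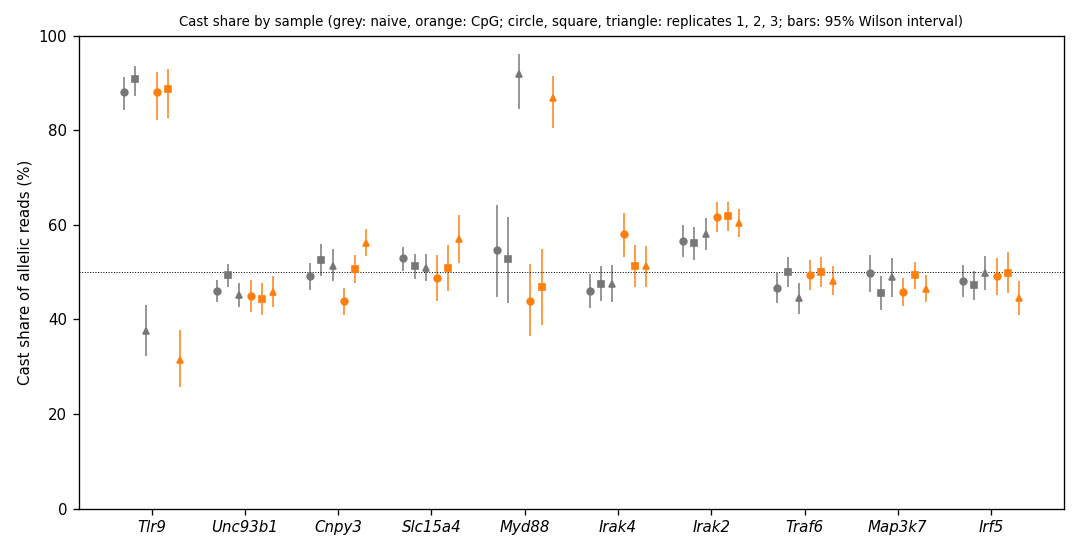
Cast share of each gene by sample, with 95% Wilson intervals; grey is naive, orange stimulated, and symbols mark the replicate. Replicate 3 is at 37.5% and 31.4% for Tlr9 and at 92.0% and 86.9% for Myd88, away from the other 4 samples, and the 8 other genes stay between 43.8% and 61.9%.

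Most genes in a run around Tlr9 showed a split in the same direction. Genes of chromosome 9 with enough reads were placed in RefSeq order, and a run of 24 genes from Nudt16 to Tusc2 around Tlr9 stood out by a running median over 9 genes of the difference between replicate 3 and the others (above 15 points). The other 23 genes of this run had median Cast shares of 79.2%, 82.3% and 51.8% in naive and 78.0%, 78.6% and 51.0% in stimulated replicates 1, 2 and 3. Here replicate 3 lay near the median share of autosomal genes, 51.2% to 52.1%, and replicates 1 and 2 lay above it. Of these 23, 19 had a lower share in both replicate 3 samples than in all of the other 4, as had 40 of the 403 other genes of the chromosome. The run was chosen from these shares, so its values are a description. Around Myd88 the split was shared with 1 adjacent gene: Oxsr1 had shares of 39.2%, 55.6% and 91.0% in naive and 42.2%, 52.6% and 92.1% in stimulated samples, while Golga4 and Wdr48 on the outer sides of the pair lay between 47.4% and 56.6%. Among the 20 nearest genes of Tlr9, replicate 3 differed by more than 30 points for 5, and among those of Myd88 for 1. Among the 15 to 20 nearest genes of each of the 8 other members, it did so for 1 gene in all, a neighbour of Irf5.

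**Figure D4:**
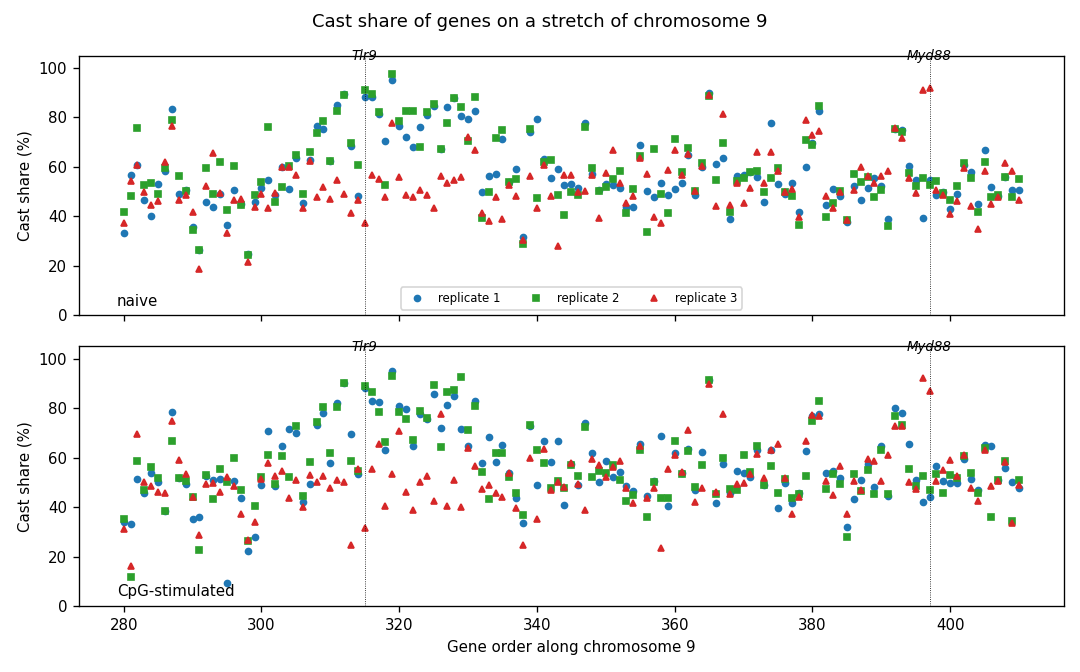
Cast share of genes on a stretch of chromosome 9 by their order along it, in naive (top) and stimulated (bottom) samples. In the run of 24 genes around Tlr9, 19 of the 23 other genes lie lower in both replicate 3 samples than in all other samples. The median share of these 23 genes in replicate 3 was 51.8% in naive and 51.0% in stimulated samples. At Myd88, replicate 3 of 2 adjacent genes lies between 86.9% and 92.1%, above the genes on either side.

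A difference in allele balance between the groups was tested as the interaction of allele and group. Both alleles of a sample were in 1 model. None of the 10 genes passed by edgeR or by DESeq2, and 1.01% of the 10089 autosomal genes tested did by edgeR. At an unadjusted p under 0.05 there were 2 of the 10, Irak4 and Irak2, where 11.6% of all genes tested were under it. Irak4 had Cast shares of 46.1%, 47.5% and 47.6% in naive and 58.0%, 51.3% and 51.3% in stimulated samples, and its log2 change of the Cast to 129 ratio was 0.37 ± 0.15 (edgeR adjusted p = 0.372). Irak2 went from 56.6%, 56.1% and 58.1% to 61.7%, 61.9% and 60.4%, a change of 0.26 ± 0.10 (edgeR adjusted p = 0.350). Neither gene passed after adjustment over all genes. For Tlr9 the estimate was -0.36 ± 1.93 and for Myd88 -0.45 ± 1.26, and the 6 other genes lay between -0.10 and 0.12. With the replicate number as a block the values were -0.28 ± 0.27 for Tlr9 (edgeR adjusted p = 0.685) and -0.53 ± 0.33 for Myd88 (edgeR adjusted p = 0.426). With the replicate block 785 genes (7.78%) passed in place of 102, again with 0 of the 10.

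Within a group, Irak2 was the gene of the 10 that differed between the alleles, in favour of Cast. The log2 ratio of Cast to 129 was 0.40 ± 0.08 in naive (edgeR adjusted p = 0.0223) and 0.67 ± 0.07 in stimulated cells (edgeR adjusted p = 0.00468), where 21.4% and 21.3% of genes passed, 13.2% and 13.1% with Cast higher. The naive call was lost with a library size for each allele (0.29, adjusted p = 0.0519) and without any 1 of the naive replicates (0.37 to 0.43). Tlr9 had the largest estimates, 1.83 ± 1.19 in naive (adjusted p = 0.379) and 1.51 ± 1.25 in stimulated cells (adjusted p = 0.474). Without replicate 3 they were 3.10 (adjusted p = 0.00349) and 2.93 (adjusted p = 0.00517).

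The wider pathway was read from lists of other genes in the fit over both alleles. Among other Toll-like receptors and their co-receptors, 10 of 12 tested fell and 0 rose (median log2 change -1.85), where 34.4% of all genes fell. Of the largest falls, Tlr13, which senses bacterial ribosomal RNA, had 123, 53 and 83 reads in naive and 0 in each stimulated sample, at least 35.8-fold lower against a floor of 3 reads per library. Cd14, a co-receptor of macrophages and other myeloid cells, had 97, 65 and 120 reads against 0, 1 and 0, at least 39.5-fold lower. Macrophage markers fell in the same samples, as given above, and their part in these falls was not tested. Tlr7, the endosomal receptor of single-stranded RNA that shares UNC93B1 with TLR9 and lies on the X chromosome, had 240, 147 and 161 reads against 18, 20 and 19 (log2 change -3.56 ± 0.25, edgeR adjusted p = 1.90e-06).

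Genes that help endosomal TLRs fold, travel and be processed moved in both directions, with 5 of 19 higher, 12 lower and a median of -0.87. Of all genes tested, 34.2% were higher and 34.4% lower. Hsp90b1, which encodes gp96, rose by 1.45 ± 0.11 with 605, 521 and 495 reads in naive and 1884, 1768 and 1826 in stimulated samples. Lrrc59, an endoplasmic reticulum protein, rose by 2.30. The protease gene Ctsb and the lysosomal nuclease gene Pld3 fell, with log2 changes of -3.34 and -2.34. Ctsb had 11458 reads in naive replicate 1 against 5832 and 6674 in replicates 2 and 3. The macrophage sum was also highest in naive replicate 1 (6110 CPM), and its part in the Ctsb fall was not tested.

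Most other signalling genes near the receptor did not pass. Of 14 other proximal genes, 5 were lower and 0 higher (median -0.12), where 34.4% of all genes fell and 34.2% rose. The number lower was 3 without naive replicate 1. It was 2 without replicate 3 in both groups, where 57.3% of all genes passed in either direction. Sharpin and Rnf31, both subunits of the linear ubiquitin ligase, fell by 1.09 and 0.99 (edgeR adjusted p = 0.00494 and 0.00361). On the Cast allele alone Sharpin was not called (-1.04, edgeR adjusted p = 0.0942). Ube2n, of the same list, was tested on the 129 allele only, where it rose by 1.38 (edgeR adjusted p = 0.00134). Of 15 IKK and MAP kinase genes, 2 rose and 9 fell (median -0.48). Map2k3 and Chuk, the latter encoding IKK-alpha, rose by 0.60 and 0.50, while Map2k6 and Map3k14, which encodes the NF-kB-inducing kinase, fell by 1.93 and 1.70.

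Of 7 other IRF genes, 4 fell and 0 rose (median -1.52), where 34.4% of all genes fell and 34.2% rose. Irf7 had 446, 362 and 256 reads in naive and 17, 12 and 9 in stimulated samples, a log2 change of -5.08, and Irf1 fell by 2.69. Of 18 negative regulators, 3 rose and 9 fell (median -0.37). Tnip3, an A20-binding inhibitor of NF-kB, had 2, 0 and 0 reads in naive and 203, 172 and 186 in stimulated samples, at least 50.3-fold higher. Socs3 rose by 2.09, with 229, 817 and 262 stimulated reads, and the phosphatase gene Dusp1 and the adaptor gene Dok3 fell, with log2 changes of -5.67 and -4.02.

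Known targets of TLR9 in B cells were the list with the most rises, 9 of 16, with 4 falls and a median of 1.27. Of all genes tested, 34.2% rose and 34.4% fell. The cytokine gene Il6 had 0, 1 and 0 reads in naive and 111, 144 and 140 in stimulated samples, at least 35.3-fold higher. Ccl3, a chemokine gene, rose by 6.63 from 5, 3 and 6 reads to 724, 235 and 793. Cd86, a co-stimulatory receptor gene, fell by 2.85, and Nfkbid, an atypical I-kappaB gene, by 1.40. The lists were drawn up with results of these data known, so their counts are descriptions.

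**Figure D5:**
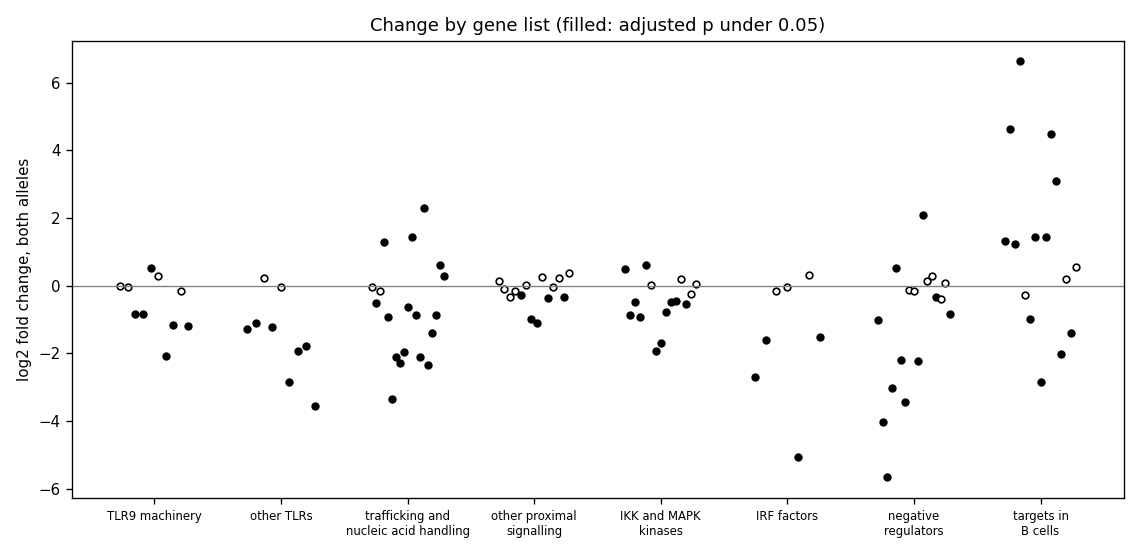
Log2 fold change over both alleles of each tested gene by list, leaving out genes with at most 3 reads in every sample of a group. Targets spread from below -2 to above 6, other Toll-like receptors are called in the lower direction only, and the TLR9 machinery lies between -2.07 and 0.51.

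Genes whose pattern over the 6 samples was most like that of Tlr9 were sought among 6762 genes with a mean of at least 100 reads, by Pearson's r of log2(CPM + 1). The 5 highest were Trmo and Zfp959 (both 0.997), Tmem57 (0.996), Rrm2b (0.995) and Ahdc1 (0.994). With 6 samples in 2 groups such values are common, and 391 genes were above 0.95.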

How the data were processed

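The authors deposited, for each of the 6 samples, a table of whole-number read counts per gene for each parental strain, without normalization, per the file contents. The RNA was extracted with TRIzol and made into libraries with a stranded total RNA kit, per the labels' protocols. The submitters' processing notes name STAR, featureCounts, Subread 2.0.0 and mm10, while the tables close with the special rows that htseq-count writes; how a read was given to a strain, and whether strand was used, is not given in the sources used here. Reads in no gene (44.5% to 67.1% of aligned reads) stayed out of library sizes. Genes without a name took 5.10% to 19.7% of gene reads.

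Tests used edgeR 4.0.16 in R 4.3.3 (robust quasi-likelihood, TMM, filterByExpr, adjusted p under 0.05), with DESeq2 1.42.0 as an alternative. For the ratio, a gene needed 10 summed reads in 3 or more samples, and the alleles of a sample had 1 library size. CPM are TMM-scaled. The tests were checked on simulated data. The 2 tests by allele share their reads with the test of the sum. Same-numbered naive and stimulated samples deviated together, so the numbers appear to pair the samples. The correlations were 0.447 to 0.612 for 129, 0.170 to 0.255 for Cast and 0.157 to 0.208 for the sum. The main tests carry no block. Blocked values are given for Tlr9 and Myd88 by allele and in the ratio test, where the block changed the error most among the 10 members. Named genes are all 10 members. From each other list they are up to 2 rises and 2 falls with a mean of at least 30 reads. Tlr7 and Ube2n were named after their values were seen. Members and lists were chosen with earlier results of these data known. Promoters came from RefSeq (GRCm38.p6), with 9 of 10 members matched. Alternatives changed the scaling, filter, tool, threshold, block and samples; leaving out replicate 3 of both groups was added after seeing the data.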

Additional observations from a re-analysis of the deposited data

How the results depend on the processing

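Of 464 values of the 10 genes under alternatives, 416 kept direction and call. Requiring a log2 change of at least 1 left 3 of the 10 genes over both alleles, where 4342 of the 10343 genes tested were left. It also left 3 on the 129 allele and 3 on the Cast allele. Counts of all genes for each allele at that threshold are not given here, so these 3 are descriptions. Genes unequal between alleles with a log2 difference of at least 1 numbered 1193 of 9347 in naive and 1170 of 9150 in stimulated cells. Of the 10, 0 were among them in either. The main fit between alleles called 1 of the 10 in naive and 1 in stimulated cells, where 21.4% and 21.3% of all genes passed. With a library size for each allele, 0 of the 10 differed in naive and 2 in stimulated cells, and counts of all genes are not given here. That scaling moved the share of higher Cast among calls from 61.5% to 51.4% in naive, from 61.4% to 50.8% in stimulated cells and from 52.9% to 66.7% in the ratio test. The replicate block raised the ratio calls from 102 to 785 and changed no call of the 10 genes but that of Tlr9 on the 129 allele (-1.01). Leaving out 1 replicate gave 15 to 29 ratio calls, and 4 without replicate 3 in both groups. It gave 1063 to 1593 unequal genes in naive and 1031 to 1911 in stimulated cells, with 0 to 1 and 1 to 2 of the 10.

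Direction turned for values that had not passed: with 1 replicate left out, Cnpy3 ranged from -0.17 to 0.12 (129), -0.15 to 0.05 (Cast) and -0.13 to 0.10 (both), Irak2 from -0.03 to 0.13 (Cast) and -0.11 to 0.03 (both), Myd88 from -0.23 to 0.38 (Cast), -1.32 to 0.40 (ratio) and -0.27 to 1.16 (Cast against 129, stimulated), and Tlr9 from -2.75 to 0.64 (129) and -1.61 to 1.10 (ratio). Upper-quartile scaling gave -0.05 for Myd88 and -0.11 for Irak2 on the Cast allele. Cnpy3 over both was 0.02 without a filter, and without replicate 3 in both groups 0.07 (129) and 0.00 (both). The cause was not tested. The depth per allele and sample was 7 to 126 reads for Myd88 and 16 to 192 for Tlr9 on the 129 allele.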

Other observations

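Other pathway genes were searched for the split by replicate seen at Tlr9 and Myd88. Of 90 listed autosomal genes with at least 20 reads in each sample, 3 had a mean Cast share in the samples of 1 replicate number that differed by more than 30 percentage points from the others. Vamp3, which encodes a vesicle fusion protein of endosomes on chromosome 4, had shares of 82.7%, 80.5% and 40.6% in naive and 74.8%, 78.2% and 42.7% in stimulated replicates 1, 2 and 3. Map2k6, a MAP kinase kinase gene on chromosome 11, had 49.1%, 48.1% and 79.2% in naive and 59.3%, 52.6% and 88.9% in stimulated samples. For the protease gene Ctsl on chromosome 13 it was replicate 2 that stood apart, with 63.6% in naive and 35.5% in stimulated cells, while the share was 96.7% and 97.3% in naive replicates 1 and 3 and every read was Cast in stimulated replicates 1 and 3. These 3 genes were named after their values were seen.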
